A study of Mus musculus with 18 samples.

Results

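Mitochondrial ribosomal proteins are the protein subunits of the ribosome that works inside mitochondria. Their genes were taken here as all genes whose single annotated symbol begins with Mrpl, for the large subunit, or Mrps, for the small subunit, followed by a digit. Where a gene had several probe sets, the one with the highest mean over all 18 arrays stood for it. The rule gave 76 genes out of 14216 with a probe set of their own, 49 with Mrpl and 27 with Mrps symbols. These 76 genes had 100 probe sets in all, 58 genes having 1 and 18 genes several. Of the 78 protein-coding mouse genes with such symbols in RefSeq, 76 were measured, and Mrps36 and Mrps10 were not analysed here.

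Heart RNA was measured on Affymetrix Rat 230 2.0 arrays in wild-type rats and in homozygous mutants, whose mutation changes the splicing of titin, at 1, 20 and 49 days of age. Each of the 6 groups of genotype and age held 3 animals with an array each. Both genotypes came from a Sprague-Dawley line crossed to Fisher 344 inbreds, the labels do not say which animals were littermates, and their organism field says mouse where strains and array are rat. The extracts are described as ventricular in the design text and as whole heart in the titles. All values are log2 levels, so a difference of 1 is a doubling, and levels of different probe sets cannot be set against each other as amounts of RNA.

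The mitochondrial ribosome makes the few proteins that mitochondrial DNA encodes, all of them core subunits of the respiratory chain and the ATP synthase. Its RNA comes from mitochondrial DNA, while its proteins come from nuclear genes, are made in the cytosol and are imported, so that nuclear and mitochondrial gene activity have to be matched. Heart muscle is among the tissues richest in mitochondria, its mitochondria expand after birth as the heart turns to fatty acid oxidation, and inherited defects of several of these proteins are known causes of cardiomyopathy. The genotype compared here is known to affect Rbm20, a splicing factor of titin, and the brighter of its annotated probe sets read 9.74 to 10.90 in the 9 wild-type hearts and 5.35 to 6.12 in the 9 mutant hearts, in keeping with the labels. Array medians lay within 5.42 to 5.5, no pair of arrays held the same values, and none of the 11 measured cardiomyocyte markers fell below its array's median in any group.

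The 76 genes were among the brighter probe sets. Each had a mean level of at least 7 over all arrays. The lowest stood at the 72.2 percentile of tested probe sets and the median gene at the 94 percentile. Mrps18c, the dimmest, read 6.64 ± 0.40 in mutant hearts at day 1 (SD, n = 3). The median level over the 76 genes was 9.24 ± 0.07 in wild-type hearts at day 1, 9.38 ± 0.09 at day 20 and 9.38 ± 0.08 at day 49 (SD, n = 3). In mutant hearts it was 9.19 ± 0.07, 9.32 ± 0.15 and 9.30 ± 0.11. The brightest probe sets were those of Mrpl12, Mrpl54, Mrpl33, Mrpl15 and Mrpl17, and the dimmest those of Mrps18c, Mrpl46, Mrpl49, Mrps27 and Mrpl10. Within a group the SD of a gene was 0.12 at the median and ran from 0.05 to 0.35, so that most of the differences described here are a few times this spread at most.

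Promoter sequence is shown for the genes whose age changes lead the results, Mrpl24 as the largest rise and Mrps2 and Mrps18a as the largest falls, and for Mrpl12, the stalk protein of the large subunit. They are the 250 bases before the start of the mouse gene on the plus strand of GRCm38.p6, from RefSeq, read 5′ to 3′, since the table given was of mouse. Capitals mark the ETS core CGGAAG, which is part of the site of the nuclear respiratory factor GABPA. Mrpl24 lies at chr3:87919294-87919543, Mrps2 at chr2:28467816-28468065, Mrps18a at chr17:46110754-46111003 and Mrpl12 at chr11:120484387-120484636.
Mrpl24: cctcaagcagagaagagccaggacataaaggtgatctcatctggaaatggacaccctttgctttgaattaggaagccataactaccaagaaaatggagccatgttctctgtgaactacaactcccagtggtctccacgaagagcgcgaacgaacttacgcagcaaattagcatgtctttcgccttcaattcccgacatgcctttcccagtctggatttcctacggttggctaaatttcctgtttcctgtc
Mrps2: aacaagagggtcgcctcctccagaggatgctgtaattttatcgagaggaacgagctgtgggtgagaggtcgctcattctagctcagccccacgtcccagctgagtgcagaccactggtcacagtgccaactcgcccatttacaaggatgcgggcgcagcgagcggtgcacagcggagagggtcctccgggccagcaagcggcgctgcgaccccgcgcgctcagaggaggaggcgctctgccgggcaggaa
Mrps18a: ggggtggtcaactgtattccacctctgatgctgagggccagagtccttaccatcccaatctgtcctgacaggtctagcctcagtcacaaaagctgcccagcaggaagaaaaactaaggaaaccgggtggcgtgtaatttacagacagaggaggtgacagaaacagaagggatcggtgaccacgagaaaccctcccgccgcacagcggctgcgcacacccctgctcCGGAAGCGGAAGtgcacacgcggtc
Mrpl12: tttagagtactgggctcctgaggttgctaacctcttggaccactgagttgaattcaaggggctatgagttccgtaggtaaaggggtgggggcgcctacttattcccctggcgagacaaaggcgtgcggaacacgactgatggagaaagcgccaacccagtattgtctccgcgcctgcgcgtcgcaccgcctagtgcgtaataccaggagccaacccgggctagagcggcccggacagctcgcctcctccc
Of these stretches, the Mrps18a promoter alone held the ETS core, as a tandem pair close to the start. Mrpl12 held it within the 50 bases after its start, which are not printed.

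The mouse promoters of the group as a whole were rich in the ETS core. Of the 76 genes 67 had an entry, with 73 promoters of 300 bases (250 before and 50 after the start), and CGGAAG on either strand stood in 54.8% of them, against 16.9% of all 32851 promoters and 25.8% of the 13528 promoters of genes measured on the array. The cytosolic ribosomal proteins came to 57.5% and the subunits of respiratory complexes I, II, III and V to 31.0%. The longer ETS site CCGGAAGT, which contains the core, stood in 16.4% of the mitoribosomal promoters against 3.89% of all and 6.48% of those of array genes. The site GCATGCGC of the nuclear respiratory factor NRF1 stood in 8 of the 73 against 2.71% of all and 4.45% of array genes, and AAGATGGCG, the site of YY1, also in 8 against 1.40% and 2.51%. The E-box CACGTG, which MYC can bind, stood in 9.59%, against 7.15% of all and 9.23% of array genes. TCAAGGTCA, the site of the oestrogen-related receptors, was found in none of the 73, against 0.423% of all and 0.266% of array genes, too rare for its absence to say much. Its core AAGGTCA stood in 4 of the 73 (5.48%), against 4.72% of all and 3.51% of array genes. By age change the ETS core stood in 7 of 17 promoters of genes that rose in wild-type hearts from day 1 to day 20, in 5 of 8 of those that fell and in 28 of 48 of those not called. These are matches of letters in mouse sequence, not measured binding. Promoter entries are counted and not genes, and Mrpl2, Mrpl48 and Mrps16 have more than 1 entry each. The entries of Mrpl2 overlap, and each held the E-box.

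From day 1 to day 20, the weeks in which the rat heart matures from the newborn state, mitochondrial ribosomal protein genes moved in both directions in wild-type hearts. Of the 76, 18 rose and 8 fell at a Benjamini-Hochberg adjusted p below 0.05 in limma, and 50 were not called. The rises made up 23.7% of the group where 12.6% of all tested probe sets rose, and the falls 10.5% where 15.6% of all fell. Among the 8811 probe sets with a mean level of at least 7, a range that holds all 76 genes, 21.6% rose and 27.9% fell. The median difference over the 76 genes was 0.10 with 52 of them positive, beside 0.04 over all probe sets and -0.05 over the brighter ones. By symbol, 14 rose and 4 fell of the 49 Mrpl genes and 4 rose and 4 fell of the 27 Mrps genes, a contrast that was not tested. The symbol is not always the place, since Mrps18a, among the 4 Mrps falls, is known to sit in the large subunit. Of the 44 genes taken by symbol to have a bacterial counterpart 11 rose and 7 fell. Of the 31 taken to have none 6 rose and 1 fell, Mrpl55 being placed in neither. This split follows symbols and not sequence, so genes such as Mrps28 and Mrpl47, counted as without, may be misplaced. In bulk tissue fewer cells of a type and less RNA per cell cannot be told apart.

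**Figure D1:**
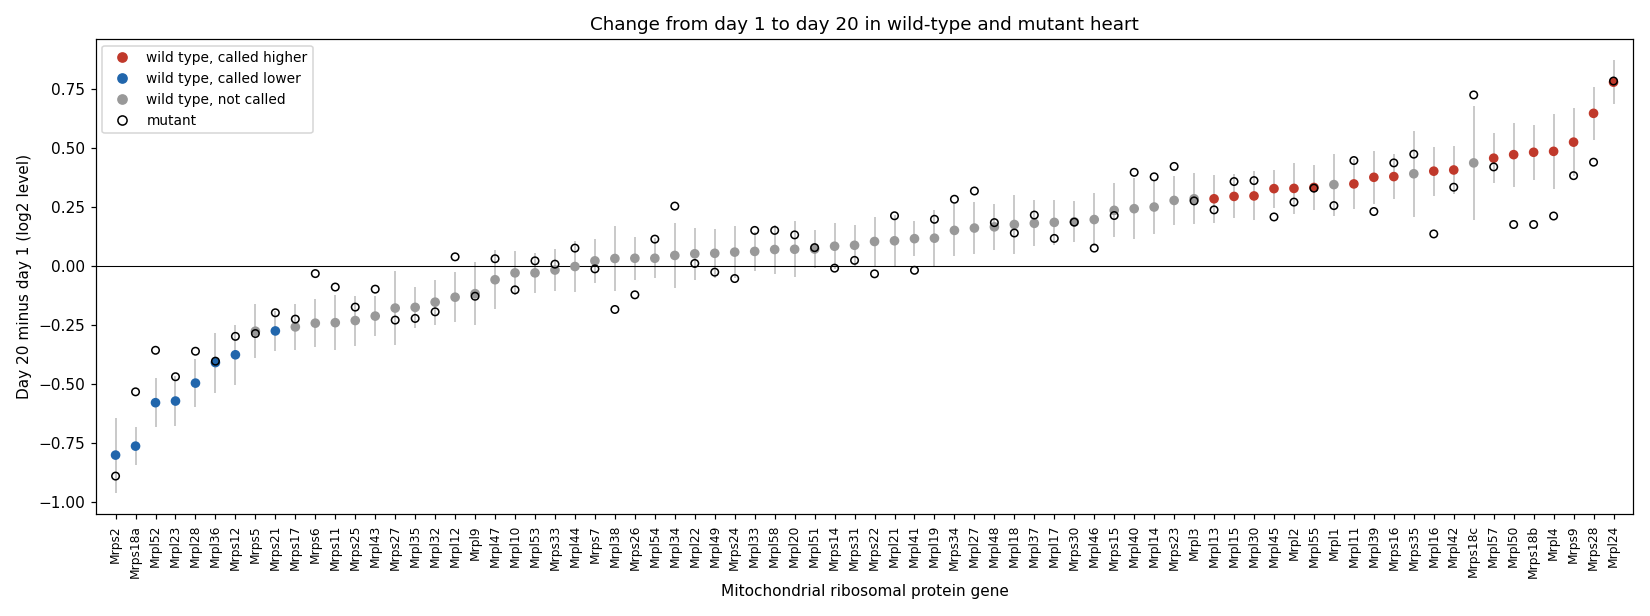
Change from day 1 to day 20 of each of the 76 genes (day 20 minus day 1, log2 level), in order of the wild-type value. Filled points with SE bars are wild-type hearts, coloured by limma's call, open circles are mutant hearts, and each mean rests on 3 animals. Wild-type changes ran from -0.80 (Mrps2) to 0.78 (Mrpl24), with 52 above 0 and 24 below.

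Among the rises Mrpl24, a large-subunit protein near the exit of the peptide tunnel, stood first. It read 8.95, 9.08 and 9.07 in the 3 wild-type hearts at day 1 and 9.90, 9.66 and 9.88 at day 20. Every day-20 heart was above every day-1 heart, a difference of 0.78 ± 0.09 (SE) or 1.72-fold (adjusted p = 3.26e-06). At day 49 the values were 9.82, 10 and 9.86, so the level reached at day 20 was held. Mrps28, a small-subunit protein, read 8.17, 8.41 and 8.44 at day 1 and 9.01, 8.98 and 8.96 at day 20. Its groups did not overlap either, and the difference was 0.65 ± 0.11 (adjusted p = 0.000221). Mrps18b, of the small subunit, read 8.79, 9.24 and 8.87 at day 1 and 9.41, 9.51 and 9.42 at day 20, a rise of 0.48 ± 0.12 (adjusted p = 0.00403).

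The other large rises were Mrps9, a small-subunit protein with a bacterial counterpart, at 0.53 ± 0.14, Mrpl4, which lines the peptide tunnel, at 0.49 ± 0.16, and Mrpl50, Mrpl57 and Mrpl42, large-subunit proteins, at 0.47 ± 0.14, 0.46 ± 0.11 and 0.41 ± 0.10. Mrpl4 read 9.41, 9.46 and 9.41 at day 1 and 10.08, 9.68 and 10 at day 20. In all of these the day-20 hearts stood above the day-1 hearts without overlap. The second probe sets of Mrps9, Mrpl50 and Mrpl57 read 0.22, 0.04 and 0.11 over the same step and were not called, so these rises were seen by the brightest probe set only. Among the remaining 10 genes that rose were Mrps16 (0.38 ± 0.10) and Mrpl11, at the base of the stalk that recruits translation factors (0.35 ± 0.10). Mrpl45, which anchors the ribosome to the inner membrane, rose by 0.33 ± 0.08. The calls of Mrpl4, Mrpl50, Mrps9 and Mrpl11 each depended on single animals. Mrpl4 was not called without any 1 of wild-type day-1 animals 1, 2 or 3 or day-20 animals 1 or 3 (adjusted p up to 0.114), Mrpl50 without day-1 animal 1 or day-20 animal 1 (up to 0.0655), Mrps9 without day-20 animal 1 (0.0509), and Mrpl11 without day-1 animal 1 or day-20 animal 2 (up to 0.0632).

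The falls were led by a pair with small-subunit names. Mrps2 read 9.15, 9.68 and 9.15 at day 1 and 8.77, 8.69 and 8.13 at day 20, a difference of -0.80 ± 0.16 (adjusted p = 0.000812). Both other probe sets of Mrps2, dimmer at mean levels of 6.39 and 5.34, read 0.25 and 0.16 over the same step and were not called, so the fall was seen by the brightest of the 3 only. Mrps18a read 9.89, 9.98 and 9.84 at day 1, 9.17, 9.18 and 9.09 at day 20 and 8.93, 9.02 and 8.85 at day 49. The groups of the first step were far apart, by -0.76 ± 0.08 (adjusted p = 7.16e-07), and the 3 ages did not overlap, although the later step was not called (adjusted p = 0.101).

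Mrpl52, a large-subunit protein with no bacterial counterpart, read 9.17, 8.98 and 9.04 at day 1 and 8.47, 8.39 and 8.60 at day 20, a difference of -0.58 ± 0.10 (adjusted p = 0.000310), while its dimmer probe set read 0.22 and was not called. Mrpl23, at the exit of the peptide tunnel, read 10.69, 10.69 and 10.64 and then 10.15, 10.02 and 10.14, a difference of -0.57 ± 0.11 (adjusted p = 0.000489). Mrpl28, of the large subunit, read 9.84, 9.62 and 9.95 at day 1 and 9.37, 9.41 and 9.15 at day 20, lower in every day-20 heart. Its difference was -0.49 ± 0.10 (adjusted p = 0.00112). Mrpl36 fell by 0.41 ± 0.13, Mrps12, a protein of the decoding site, by 0.38 ± 0.13, and Mrps21 by 0.27 ± 0.09. These 3 calls were not kept without certain single arrays, Mrpl36 without wild-type day-1 animal 2 or day-20 animal 3 (adjusted p up to 0.144), Mrps12 without day-1 animals 2 or 3 or day-20 animals 1 or 3 (up to 0.164), and Mrps21 without day-1 animals 2 or 3 or day-20 animals 2 or 3 (up to 0.0692).

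The 3 paralogues of the Mrps18 family, which derive from a single bacterial protein, did not all move one way. Mrps18a fell and Mrps18b rose, as above, and in mutant hearts Mrps18b read 0.18 ± 0.12 and was not called. Mrps18c, the dimmest probe set of the 76, read 6.94, 6.40 and 7.32 at day 1 and 7.38, 7.15 and 7.44 at day 20, with overlapping groups (0.44 ± 0.24, adjusted p = 0.204). That value is close to the one of Mrps18b with a wider error, and Mrps18c was called higher in mutant hearts (0.73 ± 0.24, adjusted p = 0.0317), again with overlapping groups. Several of the best known members were not called. Mrpl12, the stalk protein that also binds the mitochondrial RNA polymerase, read 11.10, 11 and 11.27 at day 1 and 11.04, 10.98 and 10.96 at day 20 (-0.13 ± 0.10). Mrpl10, to which the stalk is attached, differed by -0.03 ± 0.09. Its dimmer probe set read 0.27 ± 0.17 and was not called, but in mutant hearts it was called higher (0.48 ± 0.17, limma adjusted p = 0.0428). Mrpl3 and Mrpl44, both known from human cardiomyopathy, differed by 0.29 ± 0.11 (adjusted p = 0.0565) and by -0.00 ± 0.11 (0.996). Mrpl32, which the m-AAA protease matures in mitochondria, differed by -0.15 ± 0.10, Mrps7 by 0.02 ± 0.09, Mrps14 by 0.09 ± 0.10 and Mrps22 by 0.10 ± 0.10. Mrps18c and these 8 genes did not pass the test.

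**Figure D2:**
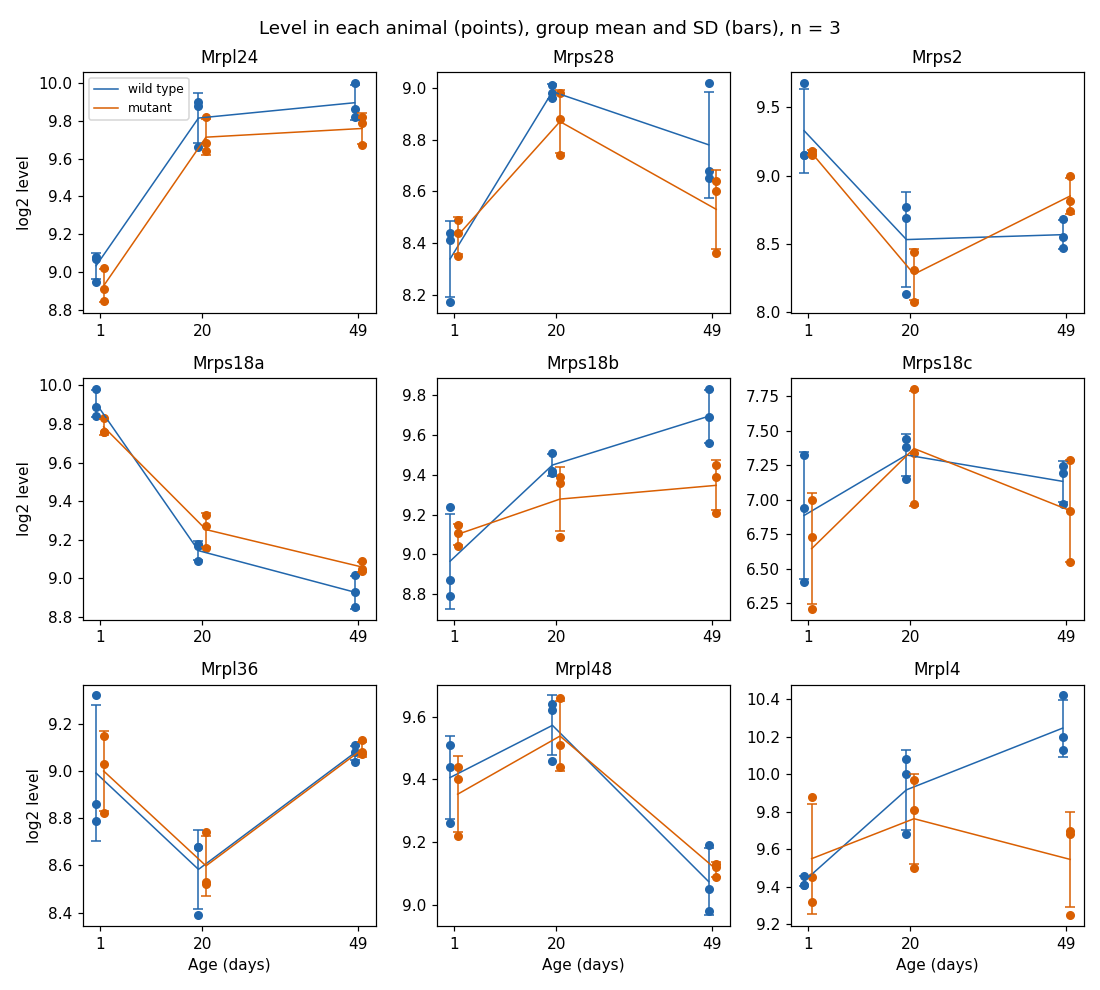
Log2 levels of 9 genes against age in days, in wild-type (blue) and mutant (orange) hearts. Points are single animals, lines join group means, and bars show the SD of 3 animals. Mrpl24 and Mrps28 are higher at day 20 than at day 1 in both genotypes, Mrps2 and Mrps18a are lower, and Mrpl4 at day 49 lies at 10.13 to 10.42 in wild-type and 9.25 to 9.70 in mutant hearts.

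The count of calls from day 1 to day 20 rested in part on single arrays. It was 16 without wild-type day-20 animal 1 and 17 without wild-type day-1 animal 1, against 26 with all arrays. Other properties of the hearts moved over the same step. The summed linear level of the 11 cardiomyocyte markers was 103778 to 111444 at day 1 and 120813 to 128613 at day 20, and 6 of the 11 rose and none fell. Summed leukocyte markers went from 912 to 1335 up to 1415 to 1614, with 5 of 9 higher, and Ptprc, the common leukocyte antigen, stayed below the array median at both ages. Summed cell cycle genes went from 7943 to 8991 down to 1402 to 1534, and 14 of 15 fell. Fibroblast markers split, 4 of 9 higher and 4 lower, with summed levels of 23257 to 27950 and 24753 to 27929. Of the 7 endothelial markers 1 rose, none of the 5 erythroid markers was called, and 2 of 6 smooth muscle and pericyte markers rose and 3 fell. The gap between 3′ and 5′ Gapdh probe sets, a sign of RNA integrity, was 0.82 to 1.06 in day-1 wild-type hearts and 0.36 to 0.90 at day 20. The part of cell make-up in the result was not tested. Without the arrays whose gap exceeded 1, 24 genes were called in wild-type hearts.

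Other gene lists of mitochondrial and cytosolic protein synthesis set these changes in context. Subunits of respiratory complexes I, II, III and V, the nuclear partners of the proteins that the mitochondrial ribosome makes, rose in 43 of 60 cases and fell in 1 (median 0.35). Examples were Ndufv2 at 0.92 ± 0.09 and Ndufb10 at 0.78 ± 0.10. Cytochrome c oxidase showed 8 rises and 2 falls among 15 genes (median 0.24), with Cox7a1, the heart and muscle form, at 1.32 ± 0.18 and Cox6a1, the form of most other tissues, at -0.76 ± 0.10. Cytosolic ribosomal proteins moved the other way, 17 of 44 lower and none higher (median -0.24), with Rpl3 at -0.69 ± 0.10. The 0.10 of the mitochondrial ribosomal proteins lay between these medians, and these lists were read on the same arrays.

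**Figure D3:**
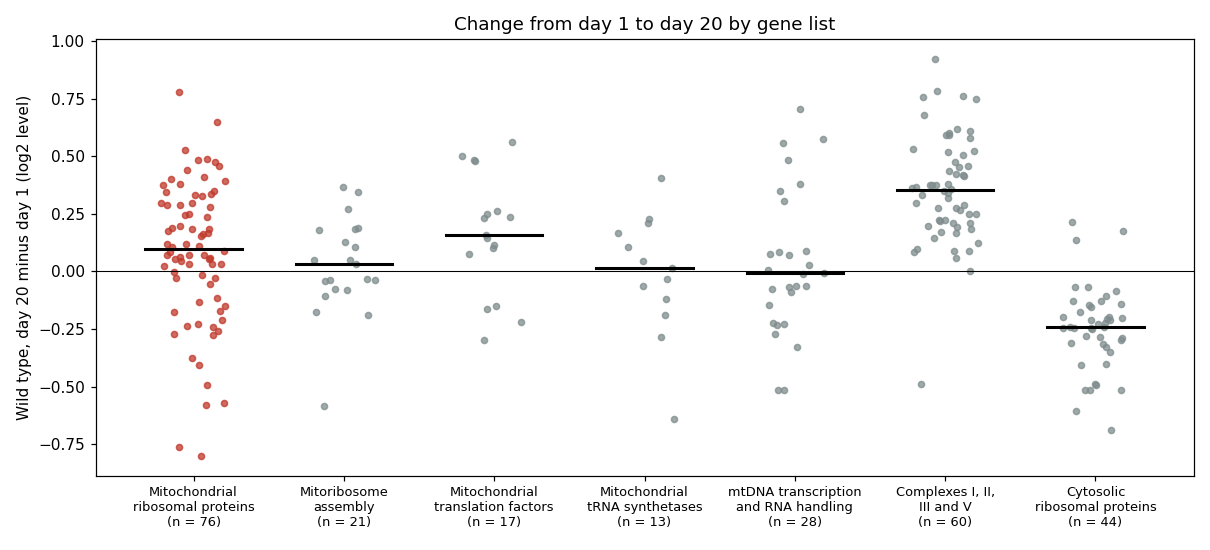
Change from day 1 to day 20 in wild-type hearts (log2 level) by gene list, a point for each gene and a black line for the median. The mitochondrial ribosomal proteins (median 0.10) spread from -0.80 to 0.78, complexes I, II, III and V (median 0.35) lie mostly above 0, and cytosolic ribosomal proteins (median -0.24) mostly below.

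Other parts of the mitochondrial gene expression machinery varied in how many genes were called, beside 12.6% of all probe sets higher and 15.6% lower. Of 17 translation factors 4 rose (23.5%) and none fell (median 0.16), among them Gfm1, the elongation factor, at 0.48 ± 0.14, and Mrrf, the ribosome recycling factor, at 0.50 ± 0.13. Of 13 mitochondrial aminoacyl-tRNA synthetases 1 rose (7.69%), Iars2 at 0.41 ± 0.14 (median 0.01). Of 21 assembly factors of the mitochondrial ribosome 2 rose (9.52%) and 1 fell (4.76%, median 0.03), the fall being Dhx30, an RNA helicase, at -0.58 ± 0.10. Among 5 subunits of the ribosome that carry other names, Dap3, a GTP-binding protein of the small subunit, fell by 0.40 ± 0.10 and none rose. Among 28 genes for transcription of mitochondrial DNA and handling of its RNA, 7 rose (25%) and 3 fell (10.7%), with the transcription factor Tfb2m at 0.70 ± 0.11. Of 12 proteases and chaperones 2 rose (16.7%) and 3 fell (25%), Clpx most at 1.13 ± 0.13.

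Of 15 regulators held to drive mitochondrial gene expression, 1 was called higher in RNA (6.67%), 6 lower (40%) and 8 not called. Over all probe sets 12.6% were called higher and 15.6% lower. The median of the 15 was -0.02, with 7 positive. The rise was Ppargc1a, the coactivator PGC-1α, at 0.94 ± 0.12 (adjusted p = 1.13e-05). The falls were Myc (-1.26 ± 0.20), Mycn (-0.78 ± 0.24), Pprc1 (-0.76 ± 0.24), Esrrb (-0.72 ± 0.14), Gabpb1 (-0.70 ± 0.16), the partner subunit of GABPA, and Nrf1 (-0.69 ± 0.13). Gabpa itself differed by -0.02 ± 0.13 and Yy1 by -0.22 ± 0.10 (adjusted p = 0.949 and 0.127).

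In mutant hearts, whose animals are separate from the wild type at every age, 14 of the 76 genes rose and 6 fell from day 1 to day 20, where 12.4% of all probe sets rose and 15.9% fell. That is 18.4% and 7.89% of the group, and among the 8811 brighter probe sets 22% rose and 27.6% fell. The median over the 76 genes was 0.12. Quantile normalization gave 24 rises and 6 falls in mutant hearts and 24 rises and 9 falls in wild-type hearts over this step, with medians of 0.16 and 0.15. Of the 26 wild-type calls all had the same sign in mutant hearts, and 15 were called in both, which is 57.7% of the wild-type calls and 75% of the mutant calls. Across the 76 genes the changes of the genotypes correlated at r = 0.91 (rho = 0.89) with 63 of the same sign, where all probe sets gave r = 0.92. Genes are not independent replicates, so this is a description. Mrpl24 read 8.91, 8.85 and 9.02 in mutant hearts at day 1 and 9.64, 9.68 and 9.82 at day 20, a rise of 0.79 ± 0.09, close to the wild-type value. Mrps18a fell by 0.53 ± 0.08 and Mrps2 by 0.89 ± 0.16. The 5 genes called in mutant hearts alone were Mrpl14, Mrpl27, Mrpl40, Mrps18c and Mrps23, which does not show that the genotypes differed there. Mrpl27, Mrpl40 and Mrps18c were each lost without any 1 of mutant day-1 animals 1 or 2 or day-20 animals 2 or 3 (adjusted p up to 0.177), and Mrpl14 without day-20 animal 2 (0.0631). Mutant day-1 hearts had Gapdh gaps of 0.63 to 1.36, and without the arrays above 1, which left a single mutant heart at day 1, 9 genes were called. That lone array was assumed to vary like the other groups.

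From day 20 to day 49, when young rats grow toward adulthood, fewer genes changed. In wild-type hearts 3 of the 76 rose where 3.53% of all probe sets did, and 2 fell where 6.05% did. Among the 8811 brighter probe sets 4.57% rose and 14.2% fell. Mrpl38, a large-subunit protein, read 8.09, 8.18 and 8 at day 20 and 8.68, 8.61 and 8.48 at day 49, a rise of 0.50 ± 0.14 (adjusted p = 0.0265). Mrpl36 read 8.68, 8.68 and 8.39 and then 9.08, 9.11 and 9.04, a rise of 0.49 ± 0.13 (adjusted p = 0.0190). Mrpl28 rose by 0.43 ± 0.10. Mrpl36 and Mrpl28 had both fallen over the step before, which shares the day-20 hearts. Mrpl48, of the large subunit, read 9.62, 9.64 and 9.46 at day 20 and 9.05, 9.19 and 8.98 at day 49, lower in every older heart by -0.50 ± 0.10 (adjusted p = 0.00292). Mrpl11 read 10.10, 10.16 and 10.07 and then 9.75, 9.89 and 9.58, a fall of 0.37 ± 0.10 (adjusted p = 0.0316). At day 49 it was back near the day-1 values of 9.71, 9.81 and 9.76.

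In mutant hearts 3 genes rose over this step, where 3.92% of all probe sets did, and 3 fell, where 6.23% did. Among the 8811 brighter probe sets 4.14% rose and 14.4% fell. Mrpl36 (0.49 ± 0.13), Mrpl38 (0.57 ± 0.14) and Mrpl48 (-0.42 ± 0.10) were called in both genotypes, in the same directions. Mrpl58, a peptidyl-tRNA hydrolase built into the large subunit, fell by 0.41 ± 0.10, Mrps2 rose by 0.57 ± 0.16 and Mrpl52 fell by 0.52 ± 0.10, but the dimmer probe set of Mrpl52 rose by 1.05 over the same step and was called higher. The 2 other probe sets of Mrps2 rose as well, by 0.64 and 0.81, both called. Across the 76 genes the changes of the genotypes correlated at r = 0.82 (rho = 0.85), where all probe sets gave 0.80. The median of the 76 genes was -0.03 in wild-type and -0.05 in mutant hearts, and it was 0.05 and 0.03 after quantile normalization, which also gave 5 rises and 2 falls in wild-type hearts and 6 and 3 in mutant hearts.

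The wild-type count of this step was small enough to move with single hearts. It was 1 without day-20 animal 3, 2 without day-49 animal 1 and 3 without day-20 animals 1 or 2 or day-49 animal 2. Mrpl48 was called with each array left out. Mrpl11 and Mrpl38 were each lost without 5 of the 6 wild-type arrays of the step, all but day-49 animal 2 for Mrpl11 and all but day-49 animal 3 for Mrpl38 (adjusted p up to 0.146 and 0.113). Mrpl36 was lost without day-20 animal 3 or day-49 animals 1 or 2 (up to 0.0907), and Mrpl28 without day-20 animal 3 or day-49 animal 2 (up to 0.0630). In mutant hearts the count was 3 without day-49 animal 2. There Mrpl36 was lost without day-20 animals 1 or 2 or day-49 animals 2 or 3 (adjusted p up to 0.0708), Mrpl38 without day-20 animal 3 or day-49 animals 1 or 2 (up to 0.0629), Mrps2 without day-20 animals 1 or 3 or day-49 animals 1 or 2 (up to 0.107) and Mrpl58 without day-20 animal 2 or day-49 animal 3 (up to 0.0786). Over the same step summed leukocyte markers rose in wild-type hearts from 1415 to 1614 up to 2315 to 2925, with 8 of 9 called higher, and cytosolic ribosomal proteins fell in 25 of 44 cases. The part of other cells in these changes was not tested.

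The question the design puts first is whether the mutation changed these genes, and none of the 76 was called between genotypes. That held at day 1, where 0.110% of all probe sets were called, at day 20 with 0.139%, at day 49 with 0.606%, for the mean over ages with 1.39%, and for limma's F test of the interaction of genotype and age with 0.0741%. At an unadjusted p below 0.05 there were 1, 1, 6 and 10 genes in the first 4 of these comparisons, all lower in mutant hearts, and 2 in the interaction. These are 1.32%, 1.32%, 7.89% and 13.2% of the 76 genes, where 6.70%, 4.27%, 8.16% and 9.63% of all probe sets passed that bound in either direction. Counting only those lower in mutant hearts, 960, 735, 1328 and 1558 of the 31042 probe sets passed. Of the 8811 probe sets with a mean level of at least 7, 391, 258, 633 and 771 passed and were lower. Median differences of mutant minus wild type were -0.03, -0.04, -0.05 and -0.03, beside 0.00, 0.00, 0.01 and 0.00 over all probe sets, and 30, 27, 27 and 20 of the 76 genes were positive. These small shifts are a description of genes that vary together on the arrays. The 95% interval of a gene at a single age was 0.22 wide on each side at the median, and it lay within 0.5 of 0 for 71, 73 and 71 of the 76 genes at the 3 ages and for all 76 over the mean of ages. A missed threshold does not show that the genotypes are alike, and these intervals bound the difference.

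**Figure D4:**
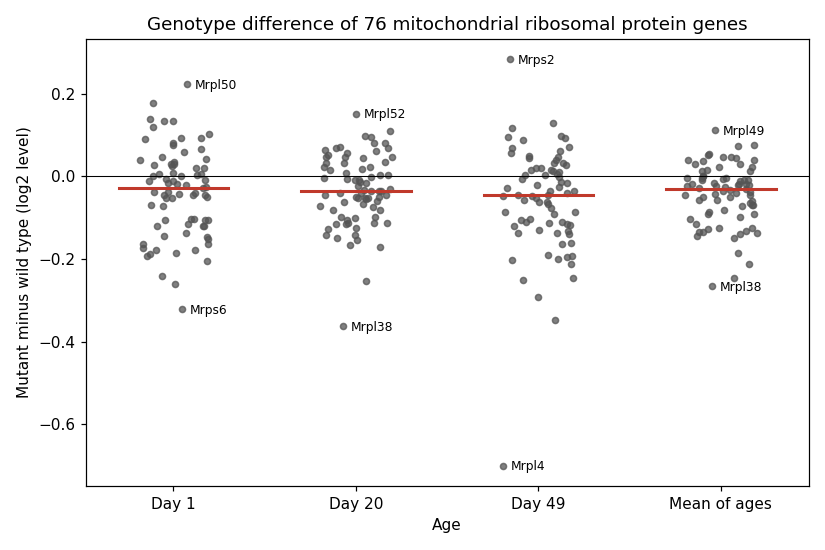
Mutant minus wild type (log2 level) for the 76 genes at each age and for the mean of the 3 ages, a point for each gene and a red line for the median. Most points lie between -0.3 and 0.2 and the medians lie between -0.05 and -0.03. Mrpl4 at day 49 stands apart at -0.70.

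Mrpl4 had the largest genotype difference. At day 49 it read 10.42, 10.20 and 10.13 in wild-type hearts and 9.68, 9.25 and 9.70 in mutant hearts, without overlap, a difference of -0.70 ± 0.16 or 1.62-fold (adjusted p = 0.0539, 95% interval -1.03 to -0.37). At the other ages the groups overlapped. At day 1 it read 9.41, 9.46 and 9.41 against 9.45, 9.88 and 9.32, and at day 20 10.08, 9.68 and 10 against 9.81, 9.97 and 9.50. In limma's F test of the interaction its adjusted p was 0.762. The day-49 value lies close to the threshold. It passed with arrays centred on their median (adjusted p = 0.0431) and with limma's trend and robust options (0.0314). It also passed with probe sets of mean level at least 6 (0.0406) and with 1 probe set per gene (0.0378). It did not pass with quantile normalization (0.077), the replicate block (0.0649) or a sex term (0.0671). Nor did it pass without any 1 of the day-49 arrays, from 0.0688 to 0.253, the last without wild-type animal 1.

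At day 49 the next largest were Mrps18b, at -0.35 ± 0.12 (adjusted p = 0.291), and Mrpl38, at -0.29 ± 0.14 (0.609), which was -0.12 without mutant day-49 animal 3. Mrps18b read 9.83, 9.69 and 9.56 in wild-type and 9.45, 9.39 and 9.21 in mutant hearts, which do not overlap. The highest were Mrps2 at 0.28 ± 0.16, Mrps18a at 0.13 ± 0.08 and Mrpl53 at 0.12 ± 0.08. For 13 of the 76 genes every mutant heart lay below every wild-type heart at this age and for 2 every mutant heart lay above, 17.1% and 2.63% of the group, where 6.96% and 6.70% of all probe sets did so and 0.606% were called. The 13 included, besides Mrpl4, Mrps18b and Mrpl38, the genes Mrpl45 (-0.20 ± 0.08), Mrps28 (-0.25 ± 0.11) and Mrpl30 (-0.24 ± 0.10). In either direction the genotypes did not overlap for 15 of the 76 genes. The same held for 18 of 60 subunits of complexes I, II, III and V and 13 of 44 cytosolic ribosomal proteins. It held for 8 of 28 genes of mitochondrial DNA transcription and RNA handling, 4 of 21 assembly factors and 3 of 17 translation factors. The share among brighter probe sets was not computed. Hybridization controls of the mutant arrays at this age spread over 8.41 to 9.90, against 9.84 to 10.16 in wild-type arrays, and their part was not tested. Each genotype held 2 hearts with the female pattern of Xist and Y-linked signal out of 3 at day 49, and 1 at each earlier age.

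At day 1 the lowest was Mrps6, a small-subunit protein, which read 9.61, 9.63 and 9.49 in wild-type and 9.14, 9.23 and 9.40 in mutant hearts (-0.32 ± 0.10, adjusted p = 0.390). Without the arrays of a Gapdh gap above 1 it was -0.15 (adjusted p = 0.922). Mrpl40 followed at -0.26 ± 0.13 and Mrps18c at -0.24 ± 0.24, while Mrpl50 (0.22 ± 0.14), Mrpl49 (0.18 ± 0.10) and Mrpl16 (0.14 ± 0.10) were highest. At day 20 Mrpl38 was lowest. It read 8.09, 8.18 and 8 against 7.70, 7.85 and 7.62, without overlap (-0.36 ± 0.14, adjusted p = 0.917). Mrps2 (-0.25 ± 0.16) and Mrps18b (-0.17 ± 0.12) came next, and Mrpl52 (0.15 ± 0.10), Mrps18a (0.11 ± 0.08) and Mrpl49 (0.10 ± 0.10) were highest. Over the mean of ages Mrpl38 stood at -0.27 ± 0.08 (adjusted p = 0.144), Mrpl4 at -0.24 ± 0.09 (0.307) and Mrps6 at -0.21 ± 0.06 (0.0955). The highest were Mrpl49 at 0.11 ± 0.06, Mrpl53 at 0.08 ± 0.05 and Mrps22 at 0.07 ± 0.06, and none of these passed the test.

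Genotype calls of related genes stand here beside 1.39% of all probe sets called over the mean of ages and 0.606% at day 49. Over the mean of ages 1 of 60 subunits of complexes I, II, III and V was called (1.67%), Ndufv3 at -0.27 ± 0.05 (adjusted p = 0.00458). Of cytochrome c oxidase 1 of 15 was called (6.67%), Cox7a1 at -0.42 ± 0.10 (0.0480). At day 49 alone Cox7a1 was called at -1.02 ± 0.18 (adjusted p = 0.00675), and at days 1 and 20 it read -0.06 and -0.17. Among the 13 synthetases Tars2 alone was called (7.69%), lower by 0.26 ± 0.06 (0.0486), and all 13 were negative. Polrmt, the mitochondrial RNA polymerase, was lower by -0.29 ± 0.06 (0.0295) and Fastkd5, which processes mitochondrial RNA, higher at 0.34 ± 0.08 (0.0337). Each is 3.57% of the 28 genes for transcription of mitochondrial DNA and handling of its RNA. Esrrb was higher by 0.46 ± 0.08 (0.00502), the only call among 15 regulators (6.67%). None of 21 assembly factors, 17 translation factors, 12 proteases and chaperones, 5 subunits of other names or 44 cytosolic ribosomal proteins was called. These lists are short for a share of 1.39%, so the lack of calls in them says little. At day 49, 49 of the 76 genes were negative (median -0.05). So were 16 of 17 translation factors (-0.16), 25 of 28 genes for transcription of mitochondrial DNA and handling of its RNA (-0.175), and 48 of 60 subunits of complexes I, II, III and V (-0.06). Of 44 cytosolic ribosomal proteins 38 were positive (0.10). The lean below wild type was thus not particular to the 76 genes, and it was not tested. Cardiomyocyte markers had summed levels of 124653 to 126234 in wild-type and 119909 to 123655 in mutant hearts at day 49, and none of the 11 was called at that age, while over the mean of ages Csrp3, a protein of the sarcomere's Z-disc, was called higher at 0.38 ± 0.05 (adjusted p = 0.000233). Summed leukocyte markers were 2315 to 2925 and 2773 to 3685, with 9 of 9 higher in mean in mutant hearts and none called, and fibroblast markers 19863 to 23316 and 23223 to 29245, with 1 of 9 called higher. Cell cycle genes were called higher in mutant hearts in 5 of 15 cases over the mean of ages, led by Cks2 at 0.71 ± 0.13 (adjusted p = 0.00583), with summed levels of 1683 to 2092 against 1402 to 1534 at day 20. All 5 erythroid markers were higher in mean at day 49 (median 0.52) and none was called. The part of these other cells and of cell division in the genotype differences was not tested.

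The 76 genes shared shifts from array to array that group did not account for. With the group means removed, pairs of these genes correlated over the 18 arrays at a median r of 0.42, and 38.5% of pairs exceeded 0.5. Over all 8811 probe sets with a mean level of at least 7 the figures were 0.10 and 11.4%, and for 44 cytosolic ribosomal proteins the median was 0.26. The points share arrays, their scaling and their RNA quality, so no test is given. After quantile normalization the medians were 0.21 for the 76 genes and 0.00 for the 8811 probe sets. In mutant day-20 animal 1 only 3 of the 76 genes lay above their group mean (median deviation -0.12), and in wild-type day-49 animal 3 only 4 did (-0.09). In wild-type day-49 animal 2, by contrast, 70 lay above (0.11), and in mutant day-20 animal 3, 67 (0.09). The 8811 brighter probe sets deviated by -0.04 (mutant day-20 animal 1), 0.00 (wild-type day-49 animal 3), 0.05 (wild-type day-49 animal 2) and 0.05 (mutant day-20 animal 3) on the same arrays. Deviations of 0.09 to 0.12 on these 4 arrays stand beside the median change of 0.10 with age in wild-type hearts and the median genotype differences of -0.05 to -0.03.

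**Figure D5:**
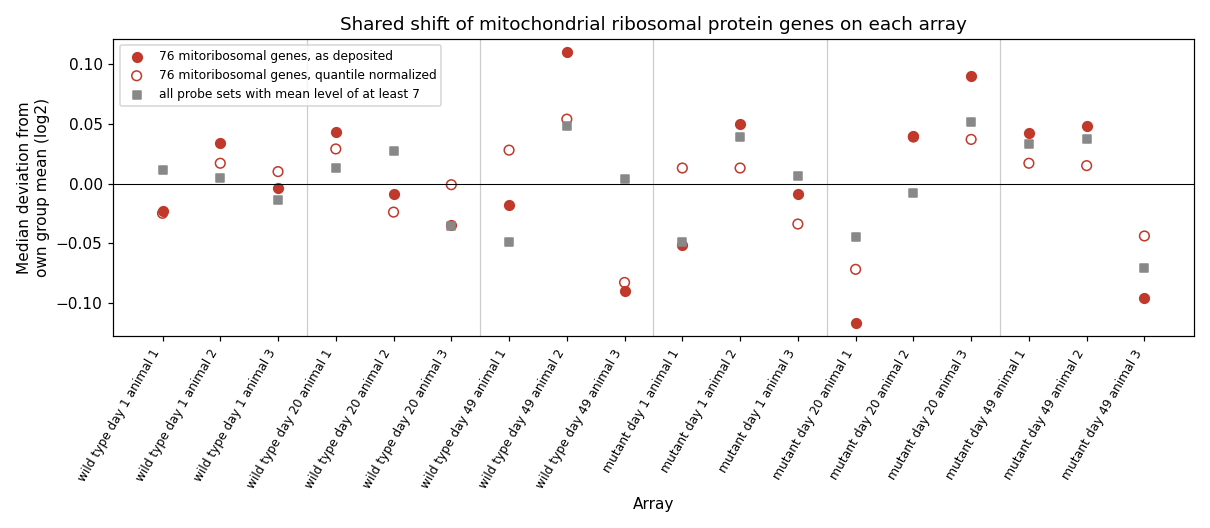
Median deviation of the 76 genes from their own group mean (log2) on each of the 18 arrays, as deposited (filled) and after quantile normalization (open), with all probe sets of mean level at least 7 as grey squares. As deposited the values run from -0.12 in mutant day-20 animal 1 to 0.11 in wild-type day-49 animal 2.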

How the data were processed

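Per the labels and the series design text, the authors labelled total heart RNA of 18 rats, hybridized it to Affymetrix Rat 230 2.0 arrays and deposited log2 values from robust multi-array analysis (RMA), which the submitters' processing notes name without a version. Replicate arrays were not pooled. Arrays give no read depth, so precision rests on the 3 animals of a group. The log2 values were used as deposited. Of 31099 probe sets 57 controls were left out, and 31042 were tested in limma 3.58.1 (R 4.3.3) by lmFit and eBayes, all 6 groups sharing a model with 12 residual and 5.77 prior degrees of freedom, two-sided moderated tests and Benjamini-Hochberg adjustment over all tested probe sets. Errors are SE for differences and SD for levels. The fit was tested on simulated data.

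Gene names came from the platform annotation, where 3 of the 76 symbols were in lower case. RMA compresses differences of dim probe sets, and a brightest probe set may read 1 transcript form. The members, gene lists, tests and naming rule were chosen with earlier results of these data known. Named genes are the 8 largest called changes with age whose groups do not overlap, in each direction, the 3 largest genotype differences in each direction, the 5 brightest and 5 dimmest, a list of 15 well known members, called members whose probe sets disagree, and up to 4 called genes of each other list. Esrrb, Gabpb1, Nrf1, Gabpa and Yy1 for day 1 to day 20, the genes called in mutant hearts and Mrpl45, Mrps28 and Mrpl30 at day 49 were named after their values were seen. Alternatives were another scaling, filter, variance model, probe set, arrays in the fit, a sex term, a replicate block and each array left out. The background of brighter probe sets and the pairwise correlations were chosen after seeing the data. The replicate numbers of the titles tie no animals across groups. Proteins and rat promoters were not used here.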

Additional observations from a re-analysis of the deposited data

How the results depend on the processing

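Of the calls of single genes with age, 1405 comparisons with an alternative kept direction and call, 142 kept direction and lost the call, and 4 reversed. All 4 came with the second brightest probe set, where Mrpl52 read 0.22 and Mrps2 0.25 in wild-type hearts from day 1 to day 20, Mrps2 0.07 in mutant hearts over that step and Mrpl52 1.05 in mutant hearts from day 20 to day 49, and the cause was not tested. Most of the 18 runs that leave out an array drop one outside the groups compared. Such a run cannot change the difference, only its error and adjusted p, so the count of 1405 overstates how well the calls hold. Under each alternative run, the median differences moved from their values as reported by less than the replicate SD of the median level (0.0976). That bound is wider than most of these medians, so even a change of sign can pass it. With quantile normalization the median from day 20 to day 49 went from -0.03 to 0.05 in wild-type hearts and from -0.05 to 0.03 in mutant hearts. The day-49 genotype count of 0 became 1, Mrpl4, with arrays centred on their median, with limma's trend and robust options, with probe sets of mean level at least 6, with 1 probe set per gene and without the arrays of a Gapdh gap above 1. Over the mean of ages it became 1 with quantile normalization (Mrps6, adjusted p = 0.0354, against 0.0562 to 0.122 with arrays centred, a filter, other variance model, 1 probe set per gene, sex term or block, and 0.361 at a difference of -0.16 without arrays of a Gapdh gap above 1) and 1 with the replicate block (Mrpl38, adjusted p = 0.0247). Wild-type calls from day 20 to day 49 became 9 with probe sets of mean level at least 6, which tests fewer probe sets. Mutant calls from day 1 to day 20 became 9 without arrays of a Gapdh gap above 1 and 13 with only the arrays of the groups compared, both of which use fewer arrays. Leaving out each array in turn gave 0 to 1 calls for genotype at day 49, 16 to 28 and 1 to 6 for wild-type hearts over the earlier and later step, and 14 to 23 and 3 to 8 for mutant hearts. Deviations of same-numbered animals correlated weakly, at -0.20 to 0.22 over 45 pairs (median 0.06, 16 of them over 0.1). The numbers were not taken as pairs, though a weak shared part is not excluded. With the replicate block the age counts were 28 and 5 in wild-type and 20 and 7 in mutant hearts. Dim probe sets and 3 animals a group limit what could be seen.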
